A study of Homo sapiens with 18 samples.

Results

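The lysosome and autophagy genes described here are 35 named human genes, taken by symbol from gene count tables that list 59251 genes. They were sorted by role into 3 transcription factors (TFEB, TFE3 and MITF), 5 membrane, cholesterol and ion transport genes (LAMP1, LAMP2, MCOLN1, NPC1 and NPC2), 9 genes called hydrolase genes here (the enzymes CTSA, CTSB, CTSD, CTSL, GLA, HEXA, NEU1 and GAA, and the activator precursor PSAP), 5 genes of the proton pump (ATP6V0D1, ATP6V1A, ATP6V1B2, ATP6V1H and ATP6AP1), 11 autophagosome genes (ULK1, BECN1, UVRAG, WIPI1, ATG9A, ATG5, ATG7, ATG16L1, MAP1LC3B, GABARAPL1 and GABARAPL2) and 2 mitophagy genes (PINK1 and OPTN). Every one of the 35 passed the filter on low counts.

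The lysosome is an acidic organelle in which hydrolases break down proteins, lipids and glycans, and a multi-subunit proton pump, the V-ATPase, keeps it acidic. In autophagy a membrane grows around cytoplasm or a damaged organelle, closes as an autophagosome and fuses with the lysosome; when the cargo is a mitochondrion the process is called mitophagy. TFEB and TFE3 are held in the cytoplasm by phosphorylation when the kinase complex mTORC1 is active at the lysosome, and in the nucleus they bind a short sequence, the CLEAR element, near many lysosomal genes, so their activity can change without a change in their own mRNA.

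The cells were HAP1, a human leukaemia-derived line with a nearly haploid genome. Unmodified parental HAP1 was sampled with doxycycline and without it, 3 libraries each. The other line carried the genotype delSARS2+SARS2-1xFLAG, a deletion of SARS2, the mitochondrial seryl-tRNA synthetase, together with a FLAG-tagged SARS2 copy, and is called the deleted line here; it was sampled with doxycycline (the doxycycline group) and 3, 6 or 9 days after doxycycline removal, again 3 libraries each. Culture was in IMDM with 15 ng/mL doxycycline up to its removal, a statement the labels make for every sample. The labels do not give the number of clones behind the deleted line, nor for how many days the parental cells without it had been off it. The stated question is how gene expression differs between cells that express SARS2 and cells depleted of it for 3, 6 or 9 days.

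The 18 libraries held 66850705 to 111123481 counts. SARS2 itself, given as CPM (counts scaled to the library's size after TMM normalization), stood at 23.5 to 25.2 CPM in the doxycycline group, 30.5 to 32.4 in the libraries labelled day 3, 23.2 to 25.8 in those labelled day 6 and 34.0 to 48.1 in those labelled day 9, against 43.2 to 46.2 in parental cells with doxycycline. No day's mean was below that of the doxycycline group, so the counts do not show the depletion that the labels state, and directions below refer to libraries as labelled. Changes at day 6 mostly had the direction of those of parental cells without doxycycline, and changes at days 3 and 9 mostly the opposite one (counts are given with the parental comparison); whether a label is wrong was not tested. The counts are per gene and do not separate the deleted locus from the tagged copy. Of 9 haematopoietic markers 1, KIT, averaged at least 1 CPM, and GATA1, HBG1 and HBG2 were at 0 in all libraries; the summed level of the 9 was 8.27 to 9.20 CPM at day 9, 15.3 to 17.6 in the doxycycline group and 24.1 to 28.1 in parental cells without doxycycline. The summed level of 7 mesenchymal markers was 849 to 1130 CPM at day 9 and 690 to 766 in the doxycycline group, and that of 5 epithelial markers 55.5 to 63.1 and 32.6 to 37.0; the part of either difference in the results was not tested. Nothing in the labels says whether the 3 libraries of a group came from separate cultures, so p-values measure the spread between these libraries only.

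Of the 35 members 26 have at least 1 window in the RefSeq promoter table (GRCh38.p14), which runs from 250 bases before to 50 bases after an annotated start. Among those 26, 7 hold the E-box CACGTG (26.9%, beside 11.6% of 14347 tested genes with a window and 7.26% of all 35116 windows): LAMP1, MCOLN1, CTSA, CTSD, NEU1, GAA and ATP6V0D1. The longer core TCACGTGA, which contains the E-box, is in 5 of the 26 (19.2%, beside 1.89% and 0.98%), and the 10-letter palindrome GTCACGTGAC, the CLEAR form containing both, is in MCOLN1 and GAA (7.69%, beside 0.732% and 0.353%). All 3 motifs read the same on both strands. A gene counted once if any of its windows held the motif, so shares of genes and of windows are different units. The members were chosen as lysosome and autophagy genes, and the CLEAR element is known from lysosomal genes. A higher share than over all genes is therefore no test. TGATGNAA, the ATF4 composite element searched on both strands, is in none of the 26 (2.88% of tested genes with a window, 3.62% of all windows). The 80-base stretches below show the 7 E-box genes and, for contrast, WIPI1 and GABARAPL1, autophagosome genes without the motif in the window, picked after their values were seen because they moved in the opposite direction to most of the 7 (other members without the motif, among them BECN1, GLA and CTSL, moved with most of the 7 at day 9); capitals mark the longest of the 3 motifs at each place. They end 1 base before the start, except for NEU1, which ends 71 bases before it, and LAMP1, which ends 121 bases before it. LAMP1 has further E-boxes beginning 28 and 1 bases before the start, each inside the longer core TCACGTGA. The 5 members with that core are LAMP1, MCOLN1, CTSA, GAA and ATP6V0D1. A match describes letters, not binding.
MCOLN1, chr19:7522544-7522623, plus strand: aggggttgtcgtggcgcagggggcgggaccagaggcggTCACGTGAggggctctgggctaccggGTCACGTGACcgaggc
ATP6V0D1, chr16:67481158-67481237, minus strand: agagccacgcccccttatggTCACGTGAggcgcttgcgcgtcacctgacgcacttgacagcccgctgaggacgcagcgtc
NEU1, chr6:31862892-31862971, minus strand: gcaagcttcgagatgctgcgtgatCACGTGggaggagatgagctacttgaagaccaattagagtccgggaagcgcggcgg
CTSA, chr20:45891255-45891334, plus strand: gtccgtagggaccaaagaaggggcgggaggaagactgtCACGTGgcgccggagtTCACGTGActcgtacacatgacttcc
CTSD, chr11:1763928-1764007, minus strand: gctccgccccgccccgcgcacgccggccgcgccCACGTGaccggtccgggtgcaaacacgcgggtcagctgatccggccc
LAMP1, chr13:113297039-113297118, plus strand: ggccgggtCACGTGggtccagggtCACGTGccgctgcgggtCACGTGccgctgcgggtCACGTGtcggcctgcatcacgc
GAA, chr17:80101501-80101580, plus strand: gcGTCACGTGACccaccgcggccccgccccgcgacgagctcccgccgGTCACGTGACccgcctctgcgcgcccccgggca
WIPI1, chr17:68457497-68457576, minus strand: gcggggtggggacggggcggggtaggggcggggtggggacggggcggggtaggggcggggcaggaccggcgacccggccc
GABARAPL1, chr12:10212797-10212876, plus strand: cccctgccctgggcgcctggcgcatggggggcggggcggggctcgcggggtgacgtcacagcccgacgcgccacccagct

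Levels with doxycycline, compared between genes as CPM per kb of exon, ran from 78.1 ± 3.42 (SD, n = 3) for PSAP, the precursor of the saposins that help hydrolases act on sphingolipids, down to 0.435 ± 0.0413 for ATG7, whose annotated exons sum to 38588 bases. PSAP did not overlap the second, GABARAPL2 (70.8 ± 0.520), a member of the ubiquitin-like family attached to autophagosome membranes, and GABARAPL2 overlapped ATP6AP1 (70.0 ± 1.78), an accessory protein of the proton pump. CTSD and LAMP1 followed at 42.9 ± 0.610 and 42.6 ± 1.37 and did not differ beyond their spread. Of the 9 hydrolase genes 8 lay at 19.4 or more, as did 12 of the 26 other members, while NEU1, the sialidase, stood at 8.34 ± 0.284. Of the transcription factors TFE3 stood at 14.7 ± 1.17, TFEB at 3.64 ± 0.123 and MITF at 1.49 ± 0.0308, with no overlap between any pair of them.

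**Figure D1:**
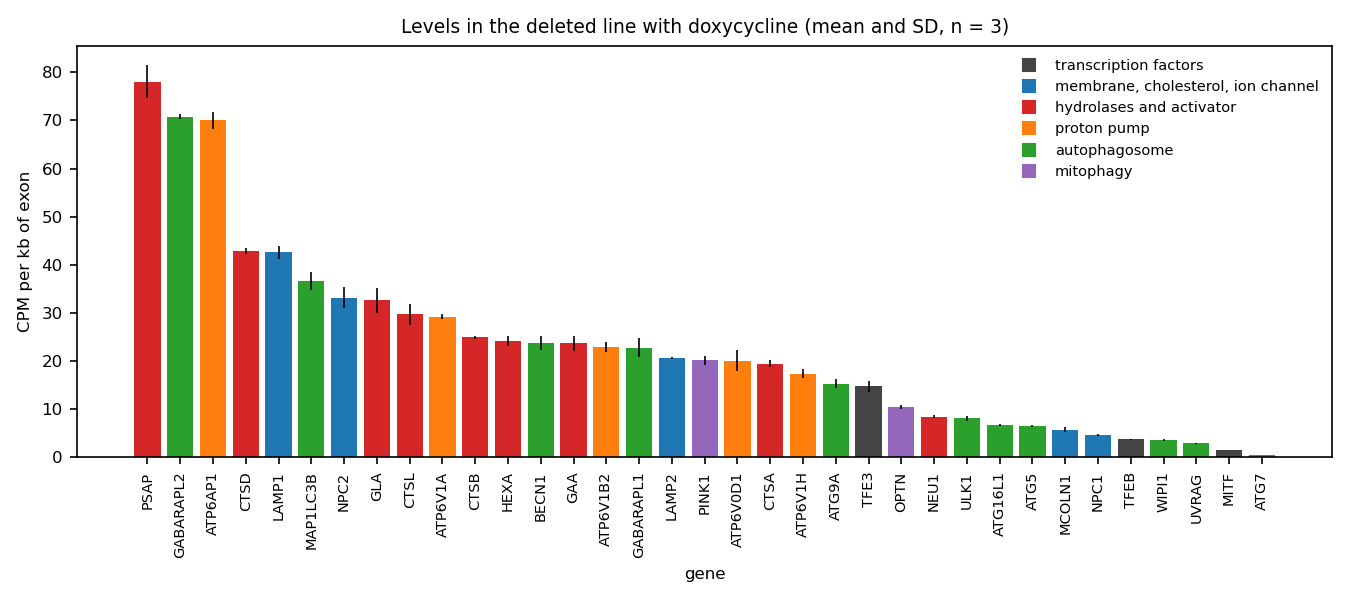
Level of each of the 35 genes in the deleted line with doxycycline, in CPM per kb of exon (y axis, linear from 0), ordered from highest to lowest; bars are means of 3 libraries, error bars are SD, and colours give the role. PSAP is highest at 78.1 and ATG7 lowest at 0.435.

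In the deleted line MCOLN1, CTSA, CTSD, CTSL, GLA, ATP6V0D1 and BECN1 fell at day 6 and rose at day 9 against the doxycycline group, and WIPI1, GABARAPL1 and GAA rose at day 6 and fell at day 9. WIPI1 and GABARAPL1 also fell, and MCOLN1 also rose, at day 3. NPC2 fell at all 3 days. Of these the calls of MCOLN1 at days 3 and 6, NPC2 and ATP6V0D1 at day 6, and CTSL and GAA at day 9 were lost when single libraries were left out, with the libraries and values given at each gene. Calls are adjusted p under 0.05 in edgeR's quasi-likelihood test, adjusted over 21615 genes, and fold changes are log2 differences with their standard errors. Against the doxycycline group, 8 of 35 members were called at day 3, beside 13.4% of all genes: 4 higher (6.5% of all genes) and 4 lower (6.87%). At day 6, 17 were called (28.1% of all genes), 7 higher (14%) and 10 lower (14%). At day 9, 25 were called (46.4%), 15 higher (22.6%) and 10 lower (23.8%). Day 9 minus day 6 gave 26 of 35 (58.8%), 14 higher (28.6%) and 12 lower (30.2%). As shares of the members the 4 counts are 22.9%, 48.6%, 71.4% and 74.3%, each above its background. The members were chosen with earlier results of these data known, so a higher share is no test. With a log2 change of at least 0.5 asked for as well, 3 members were left at day 3 (8.57%, beside 5.39% of all genes), 2 at day 6 (5.71%, beside 11.9%) and 8 at day 9 (22.9%, beside 27.2%), so that under this rule the members' share was below that of all genes at days 6 and 9. The direction was mixed, and the median over the members lay between 0.00 and 0.05 in all 4, beside medians over all genes of -0.02 to 0.01. The calls that held when any 1 library was left out numbered 3, 10, 17 and 21. Without the low-count filter the calls of LAMP1, BECN1, UVRAG and ATG7 at day 3, TFE3, ATG16L1 and ATG7 at day 6, and GABARAPL2 and HEXA at day 9 were lost, and with only the libraries of a comparison those of TFE3 and ATG7 at day 6 and of TFE3, MITF, CTSB, HEXA, GAA, ULK1 and GABARAPL2 at day 9. Scaling by library size alone moved the median of all genes to 0.08 at day 6 and -0.15 for day 9 minus day 6, and split the members called at day 6 into 8 higher and 6 lower and those of day 9 minus day 6 into 12 higher and 15 lower; with the trend over gene span removed, day 3 gave 4 higher and 7 lower. In bulk RNA, fewer cells expressing a gene and less RNA per cell cannot be told apart.

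**Figure D2:**
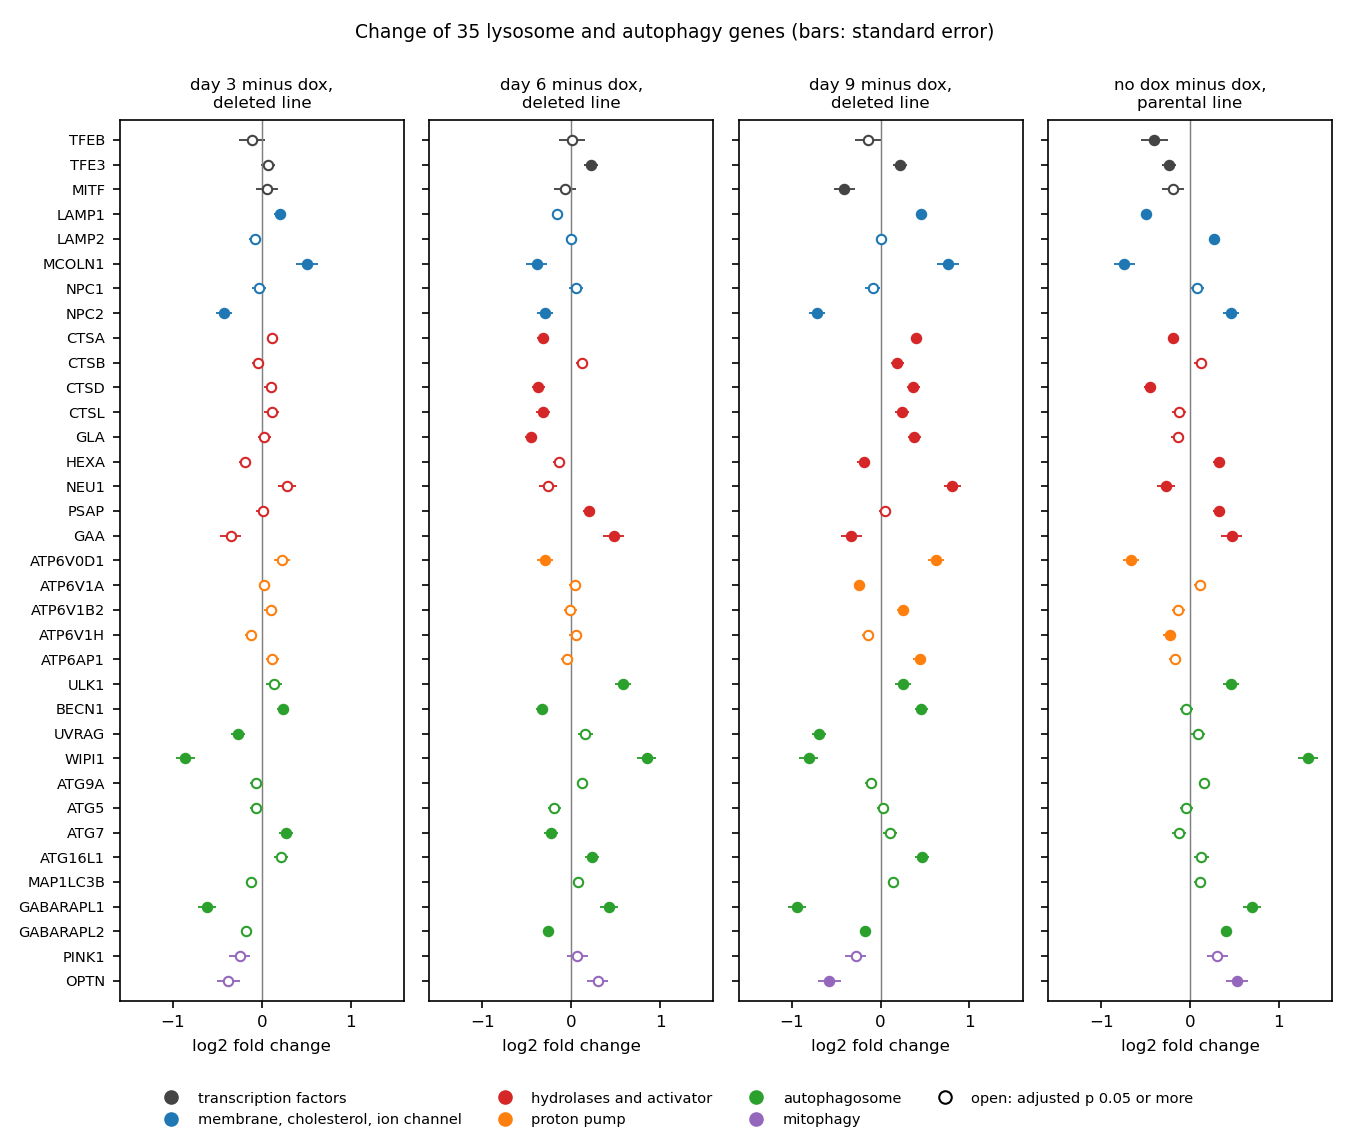
Log2 fold change (x axis) of each member (y axis, coloured by role) against the same line with doxycycline ("dox") at days 3, 6 and 9, and of parental cells without against with doxycycline; bars are standard errors and filled points have an adjusted p under 0.05. MCOLN1, LAMP1, NEU1 and ATP6V0D1 lie right of 0 at day 9 and left of it in parental cells, with WIPI1 and GABARAPL1 the other way round.

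The log2 fold changes of the 3 transcription factors against the doxycycline group lay between -0.41 and 0.22 over the 3 days. TFEB was at 11.7, 11 and 11.6 CPM in the doxycycline group, 10.1, 11.3 and 10.5 at day 3, 11.9, 10.3 and 12.2 at day 6, and 10.1, 12.6 and 8.52 at day 9. The groups overlapped, and the log2 fold changes of -0.11 ± 0.15 (SE), 0.01 ± 0.15 and -0.14 ± 0.15 were not called (adjusted p = 0.70, 0.98 and 0.49). Its parental values were 11.7, 12.3 and 12 CPM with doxycycline and 9.87, 10.8 and 6.48 without. The parental groups did not overlap and TFEB fell by 0.40 on the log2 scale (SE 0.15, adjusted p = 0.041), but 1 library without doxycycline lay apart at 6.48; without that library, replicate 3, the value was -0.21 and not called, and the call was also lost without any 1 of the parental doxycycline libraries (-0.42, -0.39 and -0.40 for replicates 1, 2 and 3).

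TFE3, the more abundant relative of TFEB, was at 90.1, 82.2 and 77 CPM with doxycycline, 86.3, 86.1 and 89.1 at day 3, 86.8, 108 and 95.6 at day 6, and 99.4, 100 and 90.4 at day 9. Day 9 lay just above the doxycycline group and day 6 overlapped it; TFE3 rose by 0.22 ± 0.08 at both (adjusted p = 0.038 and 0.023). Both calls depended on single libraries: that of day 6 went without doxycycline replicate 2 (0.21) or 3 (0.16) or day 6 replicate 2 (0.12) or 3 (0.22), and that of day 9 without doxycycline replicate 2 (0.21) or 3 (0.17), without day 9 replicate 1 (0.20) or 2 (0.19), and with the span trend removed (0.14). Parental TFE3 was at 87.8, 90.8 and 88.7 CPM with doxycycline and at 70.4, 78.0 and 77.9 without, groups that did not overlap. It fell by 0.24 there (SE 0.08, adjusted p = 0.016), which went uncalled without the parental no-doxycycline replicate 1 (-0.20) or the doxycycline replicate 2 (-0.23).

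MITF, the other factor of that family, was the scarcest: 9.57, 9.18 and 9.37 CPM with doxycycline, 10.4, 10.1 and 8.77 at day 3, 9.05, 8.07 and 9.59 at day 6, and 6.23, 8.56 and 6.41 at day 9. All day 9 libraries were below the doxycycline group, and MITF fell by 0.41 (SE 0.12, adjusted p = 0.010). It went uncalled without day 9 replicate 1 (-0.33), and with the trend over gene span removed the value was -0.05. Parental MITF was at 7.94, 7.56 and 7.58 CPM with doxycycline and 5.90, 7.12 and 7.27 without; these did not overlap, but the change of -0.19 ± 0.12 was not called (adjusted p = 0.24).

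**Figure D3:**
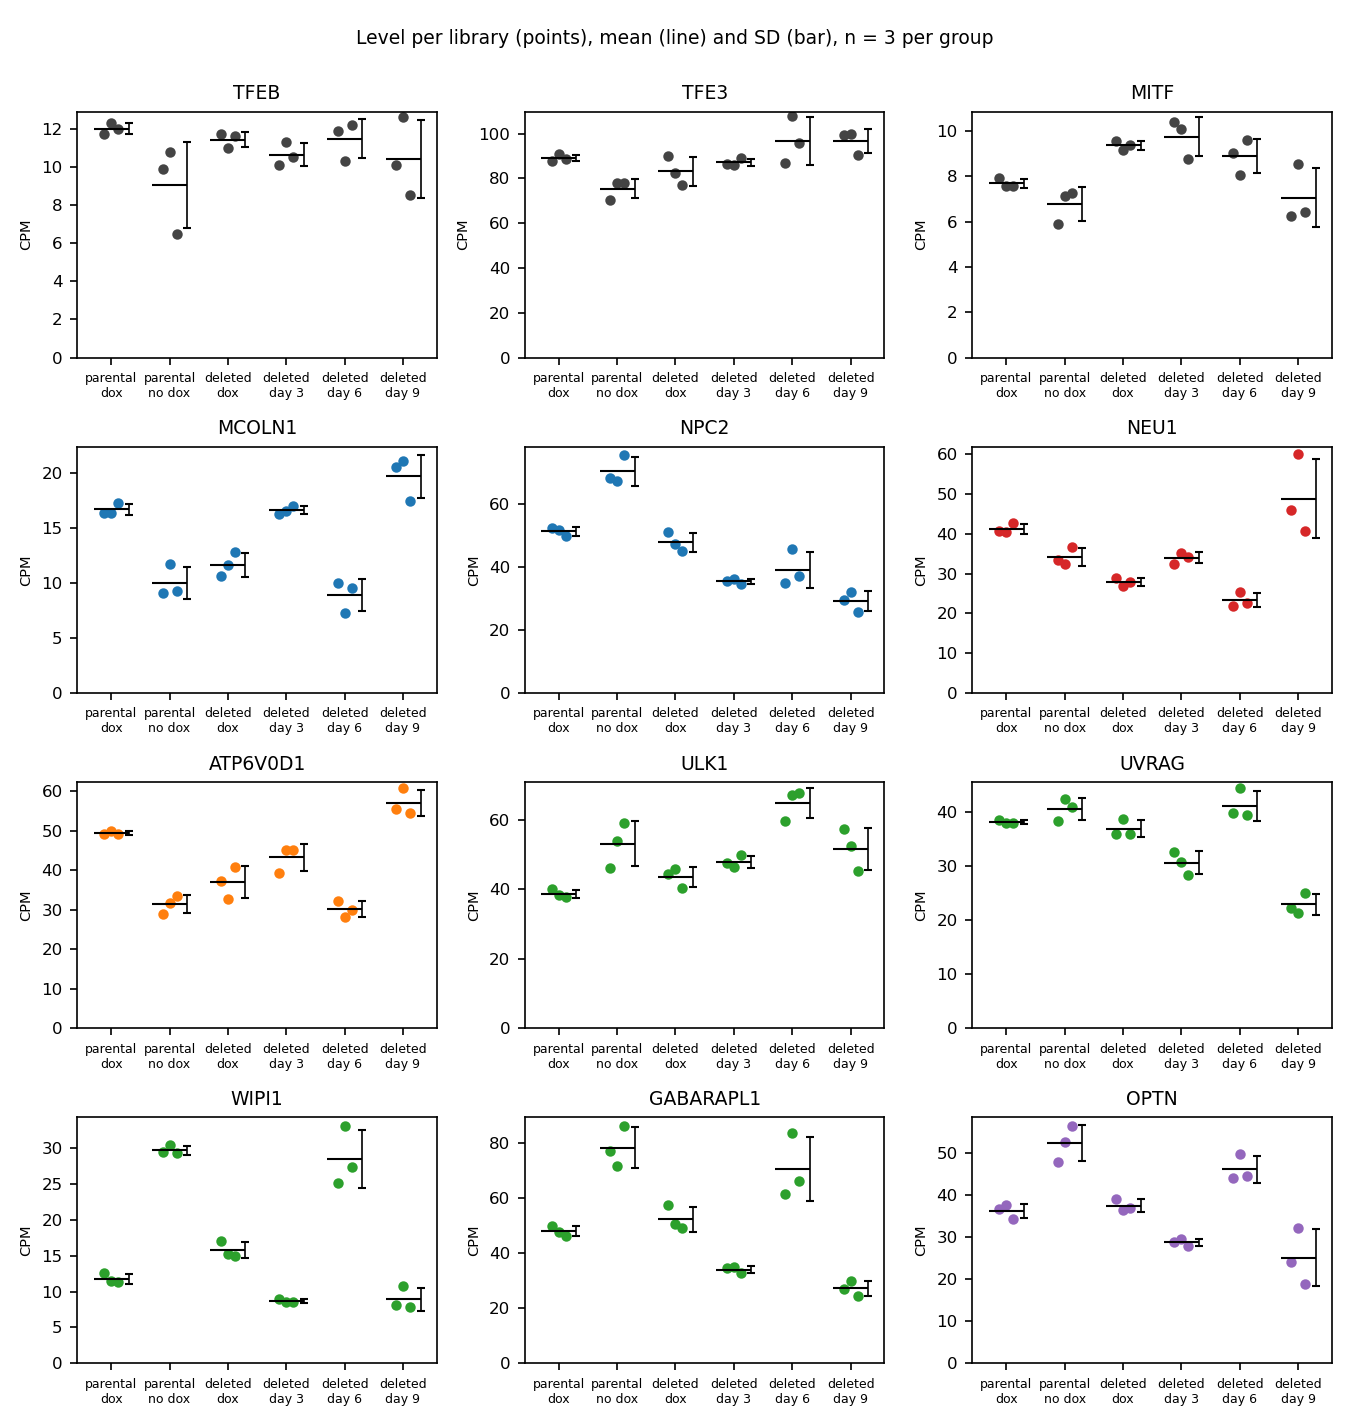
CPM (y axis, from 0) of 12 members in each of the 18 libraries, by group (x axis; "dox" is doxycycline, days are days without it): points are libraries, horizontal lines are group means and bars are SD, n = 3. WIPI1 spans 7.90 to 33.0 CPM, with day 6 and the parental cells without doxycycline high and days 3 and 9 low, and MCOLN1 shows the opposite order.

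Among the membrane and transport genes, MCOLN1 and LAMP1 rose at day 9, NPC2 fell at every day, and LAMP2 and NPC1 were not called at any day. MCOLN1 encodes mucolipin 1, the calcium channel of the lysosomal membrane. It was at 10.6, 11.6 and 12.8 CPM with doxycycline, 16.3, 16.6 and 17.0 at day 3, 10, 7.24 and 9.53 at day 6, and 20.6, 21.1 and 17.5 at day 9. Days 3 and 9 lay above the doxycycline group and day 6 below it, with no overlap. MCOLN1 rose by 0.51 ± 0.12 at day 3 (adjusted p = 0.0096), fell by 0.39 at day 6 (SE 0.12, adjusted p = 0.023) and rose by 0.76 ± 0.12 at day 9 (adjusted p = 4.4e-05). Leaving out doxycycline replicate 1 ended the day 3 call (0.45), and that of day 6 without doxycycline replicate 2 (-0.39) or 3 (-0.33), without day 6 replicate 2 (-0.27) and under scaling by library size alone (-0.32). Day 9 exceeded day 6 by 1.14 ± 0.12 (adjusted p = 1.7e-07). In parental cells MCOLN1 was at 16.4, 16.4 and 17.3 CPM with doxycycline and 9.08, 11.7 and 9.27 without, with no overlap, and fell by 0.74 (SE 0.12, adjusted p = 9.7e-05).

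NPC2, a soluble protein that hands cholesterol to NPC1 in the lysosome, was at 51.2, 47.4 and 45.0 CPM with doxycycline, 35.7, 36.1 and 34.5 at day 3, 34.8, 45.7 and 37.2 at day 6, and 29.6, 32.1 and 25.7 at day 9. Days 3 and 9 lay wholly below the doxycycline group and 1 day 6 library overlapped it. NPC2 fell by 0.43 (SE 0.09, adjusted p = 0.0059), 0.29 (SE 0.09, adjusted p = 0.029) and 0.72 (SE 0.09, adjusted p = 5.9e-06) at days 3, 6 and 9. At day 6 it went uncalled without doxycycline replicate 1 (-0.24) or 2 (-0.29), without day 6 replicate 1 (-0.22) or 3 (-0.26), under library size alone (-0.22) and with the span trend removed (-0.25). In parental cells NPC2 was at 52.5, 51.8 and 49.9 CPM with doxycycline and 68.5, 67.3 and 75.8 without, with no overlap, and rose by 0.46 ± 0.09 (adjusted p = 0.00076).

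LAMP1 and LAMP2, the abundant glycoproteins lining the lysosome, went apart. LAMP1 was at 127, 122 and 130.0 CPM with doxycycline, 115, 114 and 111 at day 6 and 164, 173 and 187 at day 9. The 3 groups did not overlap, and LAMP1 rose by 0.46 ± 0.06 at day 9 (adjusted p = 4e-06), while the day 6 value of -0.16 ± 0.06 was not called (adjusted p = 0.053). LAMP1 was also called at day 3 (0.20 ± 0.06, adjusted p = 0.034), a call lost without doxycycline replicate 1 (0.20) or 2 (0.17) or day 3 replicate 2 (0.19) or 3 (0.16). LAMP2 averaged 182 to 194 CPM over the 4 groups of the deleted line, with log2 fold changes of -0.08 to 0.01. In parental cells LAMP1 fell by 0.49 (SE 0.06, adjusted p = 6e-06) and LAMP2 rose by 0.27 ± 0.06 (adjusted p = 0.00083). NPC1, the membrane-bound cholesterol transporter, was not called in any of these comparisons or between the lines, with group means of 34.8 to 43.5 CPM.

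None of the 9 hydrolase genes was called at day 3 (13.4% of all genes). At day 6, 2 rose and 4 fell (66.7%, beside 28.1%), and at day 9, 6 rose and 2 fell (88.9%, beside 46.4%). Day 9 minus day 6 had 5 higher and 1 lower (66.7%, near the 58.8% of all genes). Its median was 0.55, beside -0.02 over all genes. The cathepsin genes CTSA, CTSD and CTSL and the alpha-galactosidase gene GLA shared this pattern. CTSD, the main aspartic protease of the lysosome, averaged 88.2 ± 1.25 CPM with doxycycline, 68.4 ± 2.61 at day 6 and 114 ± 6.71 at day 9 (SD, n = 3); it fell by 0.37 at day 6 (SE 0.07, adjusted p = 0.00049) and rose by 0.37 ± 0.07 at day 9 (adjusted p = 0.00014). CTSA, which protects NEU1 as well as cleaving peptides, fell by 0.32 at day 6 (SE 0.06, adjusted p = 0.0013) and rose by 0.40 ± 0.06 at day 9 (adjusted p = 4.9e-05). GLA fell by 0.45 and rose by 0.38 on the same days, each with SE 0.07 (adjusted p = 0.00023 and 0.00031). CTSL, a cysteine protease, fell by 0.32 at day 6 (SE 0.08, adjusted p = 0.0041) and rose by 0.24 ± 0.08 at day 9 (adjusted p = 0.014), the latter lost without doxycycline replicate 2 (0.19), without day 9 replicate 1 (0.20) and with the span trend removed (0.16).

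NEU1, the sialidase that CTSA protects, was at 28.9, 27.0 and 27.9 CPM with doxycycline, 32.5, 35.3 and 34.2 at day 3, 21.9, 25.4 and 22.7 at day 6, and 45.9, 60.0 and 40.7 at day 9. No day overlapped the doxycycline group, and day 9 spread widely, with replicate 2 high. Only the day 9 rise of 0.81 ± 0.10 was called (adjusted p = 4.8e-06); day 3 gave 0.28 ± 0.10 (adjusted p = 0.078) and day 6 -0.26 ± 0.10 (adjusted p = 0.069). Day 9 exceeded day 6 by 1.07 ± 0.11 (adjusted p = 6.4e-08). Parental NEU1 was at 40.6, 40.4 and 42.8 CPM with doxycycline and 33.4, 32.5 and 36.6 without, with no overlap. It fell by 0.27 (SE 0.10, adjusted p = 0.044), a call lost without the no-doxycycline replicate 1 (-0.26) or 2 (-0.24), without doxycycline replicate 1 (-0.28), 2 (-0.29) or 3 (-0.25), under library size alone (-0.23) and with the span trend removed (-0.20). NEU1 is annotated on 8 sequences of the deposited tables, alternative ones included, so reads shared between them could be split.

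GAA, the glycogen-degrading alpha-glucosidase, ran against the other E-box hydrolases. It was at 116, 108 and 101 CPM with doxycycline, 148, 152 and 152 at day 6, and 91.4, 106 and 61.2 at day 9. Day 6 lay above the doxycycline group, with no overlap, and day 9 overlapped it with 1 library far below. GAA rose by 0.48 ± 0.12 at day 6 (adjusted p = 0.0064) and fell by 0.33 at day 9 (SE 0.12, adjusted p = 0.033). That day 9 call was lost without day 9 replicate 3 (-0.13), or without doxycycline replicate 1 (-0.28) or 2 (-0.33), and the value without day 9 replicate 2 was -0.51. Day 9 minus day 6 was -0.80 ± 0.12 (adjusted p = 1.3e-05).

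The remaining hydrolase genes moved less. CTSB, a cysteine protease, rose by 0.19 ± 0.07 at day 9 (adjusted p = 0.044), a call lost without doxycycline replicate 1 (0.19), 2 (0.18) or 3 (0.20), without day 9 replicate 2 (0.07), under library size alone (0.14), with the span trend removed (0.14) and with a replicate block (0.19). HEXA, a subunit of the enzyme that degrades GM2 ganglioside, fell by 0.19 at day 9 (SE 0.07, adjusted p = 0.029), lost without doxycycline replicate 1 (-0.16) or 3 (-0.19) or day 9 replicate 1 (-0.18) or 3 (-0.17). PSAP rose by 0.20 ± 0.07 at day 6 (adjusted p = 0.028), lost without doxycycline replicate 2 (0.20) or 3 (0.17) or day 6 replicate 2 (0.12) or 3 (0.21). GAA, CTSB and TFE3 are each annotated on 2 sequences, as is ATG16L1, with the same limit on shared reads as NEU1.

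Of the 5 proton pump genes none was called at day 3 (13.4% of all genes) and 1 fell at day 6 (20%, beside 28.1%). At day 9, 3 rose and 1 fell (80%, beside 46.4%). ATP6V0D1, a subunit of the membrane sector, was at 37.3, 32.8 and 40.9 CPM with doxycycline, 39.4, 45.1 and 45.2 at day 3, 32.1, 28.1 and 30.0 at day 6, and 55.6, 60.7 and 54.6 at day 9. Day 9 lay far above the doxycycline group, day 6 just below it and day 3 overlapped it. ATP6V0D1 fell by 0.30 at day 6 (SE 0.09, adjusted p = 0.014) and rose by 0.62 ± 0.09 at day 9 (adjusted p = 8.3e-06), and its day 3 value of 0.23 ± 0.09 was not called (adjusted p = 0.085). At day 6 ATP6V0D1 went uncalled without doxycycline replicate 3 (-0.23), without day 6 replicate 2 (-0.26) and under library size alone (-0.23). Day 9 exceeded day 6 by 0.92 ± 0.09 (adjusted p = 3.2e-08). In parental cells it was at 49.1, 49.9 and 49.2 CPM with doxycycline and 28.9, 31.7 and 33.4 without, with no overlap, and fell by 0.66 (SE 0.09, adjusted p = 1.1e-05).

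ATP6AP1 rose by 0.44 ± 0.07 at day 9 (adjusted p = 4e-05), from 144 ± 3.66 to 195 ± 7.34 CPM (SD, n = 3). The catalytic sector split. ATP6V1B2, its B subunit, rose by 0.25 ± 0.07 at day 9 (adjusted p = 0.0039), and ATP6V1A, the A subunit that hydrolyses ATP, fell by 0.24 (SE 0.06, adjusted p = 0.0028; -0.15 with the span trend removed, still called). ATP6V1H, a regulatory subunit, was not called at any day (-0.14 ± 0.07 at day 9, adjusted p = 0.13). Day 9 minus day 6 called all 5 (100%, beside 58.8% of all genes), 3 higher and 2 lower. Among them were ATP6V1A at -0.28 ± 0.06 (adjusted p = 0.00046; -0.14 with the span trend removed), ATP6V1B2 at 0.26 ± 0.07 (adjusted p = 0.002; 0.13 under library size alone), and ATP6V1H at -0.18 ± 0.07 (adjusted p = 0.035). The ATP6V1H call was lost without day 6 replicate 2 (-0.14) or 3 (-0.18) or day 9 replicate 1 (-0.15) or 2 (-0.13), its value was -0.31 under library size alone, and it turned to 0.14 with the span trend removed.

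The 11 autophagosome genes had no common direction. At day 3, 2 rose and 3 fell (45.5% called, beside 13.4% of all genes). At day 6, 4 rose and 3 fell (63.6%, beside 28.1%), and at day 9, 3 rose and 4 fell (63.6%, beside 46.4%). WIPI1 showed the widest range of group means among the 35 members, 8.68 to 29.7 CPM, a ratio of 3.42. It binds the phosphoinositide made where an autophagosome begins. WIPI1 was at 17.0, 15.3 and 14.9 CPM with doxycycline, 8.95, 8.58 and 8.51 at day 3, 25.1, 33.0 and 27.4 at day 6, and 8.15, 10.8 and 7.90 at day 9. Days 3 and 9 lay below the doxycycline group and day 6 above it, with no overlap. The log2 fold changes were -0.86 ± 0.11 (adjusted p = 0.00023), 0.85 ± 0.11 (adjusted p = 2.7e-05) and -0.81 ± 0.11 (adjusted p = 1.1e-05), and day 9 minus day 6 was -1.67 ± 0.11 (adjusted p = 1e-09). In parental cells WIPI1 was at 12.6, 11.5 and 11.3 CPM with doxycycline and 29.4, 30.4 and 29.3 without, and rose by 1.33 ± 0.11 (adjusted p = 2.2e-07). WIPI1 (chr17:68421281-68457496, minus strand) overlaps PRKAR1A, which averaged 204 CPM, and ARSG, both on the opposite strand; the column names carry HISAT2_RF, an aligner option for strand-specific pairs, but no source used here states whether the counting used strand. If it did not, a part of the WIPI1 counts could belong to them.

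GABARAPL1, of the family that joins autophagosome membranes to cargo receptors, followed the same order. It was at 57.6, 50.6 and 49.1 CPM with doxycycline, 34.6, 34.9 and 32.7 at day 3, 61.7, 83.7 and 66.4 at day 6, and 27.2, 30.0 and 24.6 at day 9. No day overlapped the doxycycline group, day 6 being high and the other days low. GABARAPL1 fell by 0.62 at day 3 (SE 0.10, adjusted p = 0.00093), rose by 0.43 ± 0.10 at day 6 (adjusted p = 0.004; 0.28 without day 6 replicate 2, still called) and fell by 0.94 at day 9 (SE 0.10, adjusted p = 7.1e-07). In parental cells it was at 50.1, 47.9 and 46.4 CPM with doxycycline and 77.2, 71.8 and 86.4 without, with no overlap, and rose by 0.70 ± 0.10 (adjusted p = 3e-05). Its relatives differed: MAP1LC3B, the usual marker of autophagosomes, was not called at any day (-0.12, 0.08 and 0.14) nor in parental cells (0.11). GABARAPL2 fell by 0.26 at day 6 (SE 0.06, adjusted p = 0.0036) and by 0.17 at day 9 (SE 0.06, adjusted p = 0.032) and rose by 0.41 ± 0.06 in parental cells (adjusted p = 3.6e-05); its day 9 call was lost without doxycycline replicate 1 (-0.16), 2 (-0.17) or 3 (-0.17) or day 9 replicate 3 (-0.11), and the value was -0.26 with the span trend removed. The near copies MAP1LC3B2 and GABARAPL3 averaged at most 1.51 and 0.0248 CPM in any group.

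ULK1, the kinase that starts autophagy and a target of mTORC1, was at 44.4, 45.9 and 40.5 CPM with doxycycline, 47.7, 46.5 and 49.9 at day 3, 59.8, 67.3 and 67.7 at day 6, and 57.4, 52.5 and 45.2 at day 9. Day 6 was highest with no overlap, and day 9 reached into the doxycycline group. ULK1 rose by 0.58 ± 0.09 at day 6 (adjusted p = 0.00016) and by 0.25 ± 0.09 at day 9 (adjusted p = 0.035). At day 9 ULK1 went uncalled without doxycycline replicate 1 (0.26) or 3 (0.20), without day 9 replicate 1 (0.16) or 2 (0.23), under library size alone (0.19) and with the span trend removed (0.21). In parental cells ULK1 was at 40.0, 38.3 and 37.8 CPM with doxycycline and 46.2, 54.1 and 59.2 without, with no overlap, and rose by 0.46 ± 0.09 (adjusted p = 0.00066).

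UVRAG and BECN1, partners in 1 form of the lipid kinase complex that forms and matures autophagosomes, parted. UVRAG was at 36.0, 38.7 and 36.0 CPM with doxycycline, 32.6, 30.8 and 28.4 at day 3, 39.8, 44.4 and 39.4 at day 6, and 22.3, 21.3 and 25.1 at day 9. Days 3 and 9 were below the doxycycline group and day 6 above it, without overlap. UVRAG fell by 0.27 at day 3 (SE 0.08, adjusted p = 0.027) and by 0.69 at day 9 (SE 0.08, adjusted p = 9.8e-07), and day 6 gave 0.16 ± 0.08 (adjusted p = 0.13). At day 3 UVRAG went uncalled without doxycycline replicate 1 (-0.29) or 2 (-0.23) or day 3 replicate 2 (-0.27) or 3 (-0.22), and with the span trend removed the day 9 value was -0.25, still called. Parental UVRAG was at 38.5, 38.0 and 37.9 CPM with doxycycline and 38.4, 42.5 and 40.9 without, overlapping and not called (0.09 ± 0.08, adjusted p = 0.37). BECN1 was at 48.3, 49.0 and 54.3 CPM with doxycycline, 40.1, 39.5 and 40.8 at day 6 and 71.0, 70.1 and 67.5 at day 9, with no overlap. It fell by 0.33 at day 6 (SE 0.07, adjusted p = 0.002) and rose by 0.46 ± 0.07 at day 9 (adjusted p = 3.2e-05). BECN1 also rose at day 3 (0.24 ± 0.07, adjusted p = 0.032), and went uncalled without doxycycline replicate 1 (0.21) or 2 (0.22) or day 3 replicate 2 (0.22) or 3 (0.24).

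The conjugation genes ATG5, ATG7 and ATG16L1 attach the ubiquitin-like proteins to the growing membrane, and ATG9A is a lipid scramblase carried on vesicles. ATG16L1 rose by 0.47 ± 0.08 at day 9 (adjusted p = 0.00013) and by 0.23 ± 0.08 at day 6 (adjusted p = 0.043), the day 6 call being lost without any 1 of the doxycycline libraries (0.25, 0.23 and 0.21 for replicates 1, 2 and 3) or any 1 of the day 6 libraries (0.24, 0.23 and 0.21), and with the span trend removed (0.20). ATG7 rose by 0.27 ± 0.08 at day 3 (adjusted p = 0.034) and fell by 0.23 at day 6 (SE 0.08, adjusted p = 0.045). Its day 3 call was lost in all fits without 1 library (0.19 to 0.30) except that without doxycycline replicate 3, and its day 6 call in all (-0.25 to -0.18) except that without doxycycline replicate 1. ATG7 is a long gene overlapped by VGLL4 on the opposite strand; its day 6 value was -0.41 with the span trend removed, and its day 9 value, 0.11 ± 0.08 and not called (adjusted p = 0.27), became 0.53 and called. ATG5 and ATG9A were not called at any day; ATG5 was called at day 6 (-0.31) and day 9 (0.26), and ATG9A at day 9 (-0.20), with the span trend removed.

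Of the mitophagy genes OPTN, a cargo receptor that binds ubiquitin on damaged mitochondria, moved with WIPI1 and GABARAPL1. It was at 39.2, 36.4 and 37.1 CPM with doxycycline, 28.9, 29.6 and 28.0 at day 3, 44.2, 49.9 and 44.6 at day 6, and 24.2, 32.3 and 18.9 at day 9. No day overlapped the doxycycline group, but the changes of -0.38 ± 0.13 at day 3 (adjusted p = 0.051) and of 0.30 ± 0.12 seen at day 6 (adjusted p = 0.080) were not called. OPTN fell by 0.58 at day 9 (SE 0.13, adjusted p = 0.00086). In parental cells it was at 36.7, 37.8 and 34.4 CPM with doxycycline and 47.9, 52.7 and 56.5 without, and rose by 0.53 ± 0.12 (adjusted p = 0.0023). PINK1, the kinase that marks damaged mitochondria, was not called at any day (-0.25, 0.07 and -0.28). Day 9 minus day 6 gave -0.35 ± 0.12 for PINK1 (adjusted p = 0.018), which went uncalled without day 6 replicate 3 (-0.34) or day 9 replicate 1 (-0.30) or 3 (-0.17), with -0.59 without day 9 replicate 2. PINK1 overlaps PINK1-AS on the opposite strand.

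In the parental line, which keeps its own SARS2, removal of doxycycline called 19 of 35 members (54.3%, beside 39.4% of all genes; median 0.08, beside 0.03), 10 of them higher (21% of all genes) and 9 lower (18.4%). Under library size alone the split was 13 higher and 5 lower, and 15 calls held when any 1 library was left out. Called were 66.7% of the hydrolase genes, 40% of the proton pump genes and 36.4% of the autophagosome genes. The last 2 shares lay near the 39.4% of all genes. By role 3 hydrolase genes rose and 3 fell, 2 proton pump genes fell, and 4 autophagosome genes rose with none lower. Among these HEXA rose by 0.33 ± 0.07 (adjusted p = 0.00069), PSAP by 0.33 ± 0.07 (adjusted p = 0.0006) and GAA by 0.47 ± 0.12 (adjusted p = 0.0047), while CTSD fell by 0.45 (SE 0.07, adjusted p = 3.6e-05) and ATP6V1H by 0.23 (SE 0.07, adjusted p = 0.016; -0.36 with the span trend removed).

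The parental comparison shares no library with those of the deleted line. Members called in both numbered 5 at day 3, of which 0 went the same way (6.82% of 1818 genes over the whole table), 12 at day 6, of which 9 went the same way (75%, beside 93.9% of 3519 genes), and 15 at day 9, of which 1, ULK1, went the same way (6.67%, beside 14.9% of 5151 genes). The 3 called in opposite directions at day 6 were TFE3, NPC2 and GABARAPL2. For day 9 minus day 6 the count was 13, of which 1, ATP6V1H, went the same way (7.69%, beside 8.0% of 6421 genes). The other 12 (MCOLN1, ATP6V0D1, NEU1, CTSA, CTSD, LAMP1, NPC2, ULK1, GAA, OPTN, GABARAPL1 and WIPI1) went opposite ways, as genes over the whole table mostly did.

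**Figure D4:**
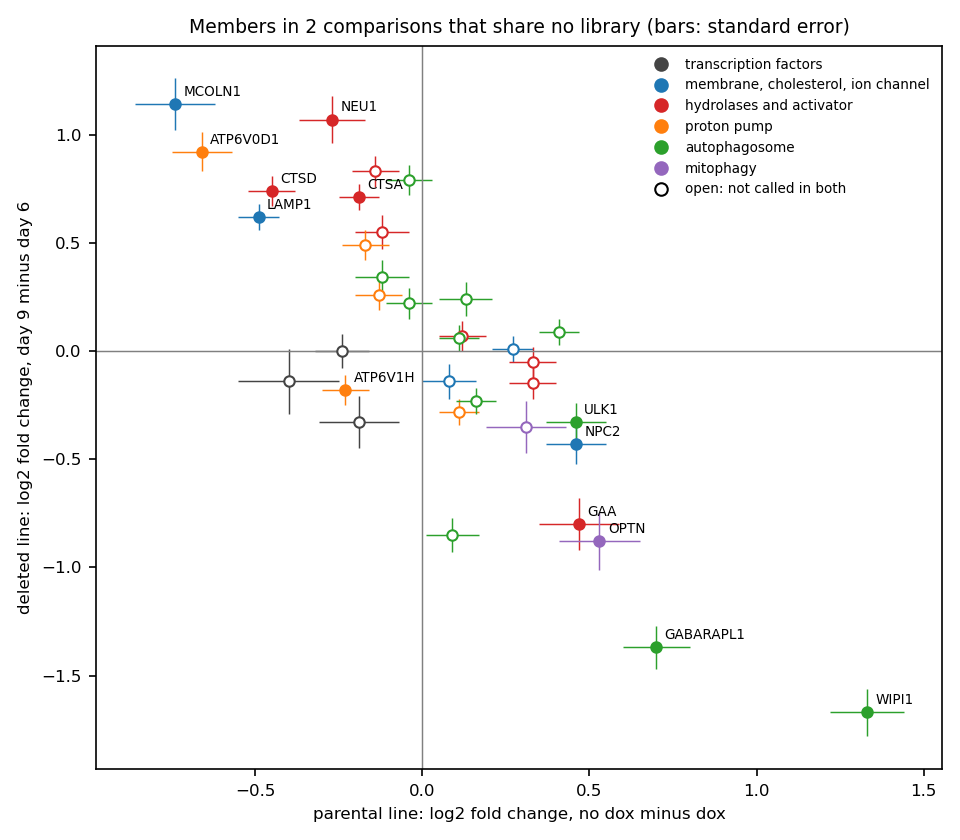
Log2 fold change of each member in parental cells, without minus with doxycycline (x axis), and in the deleted line, day 9 minus day 6 (y axis), with standard errors; the 2 comparisons share no library, and filled, named points were called in both. Of 13 named genes 12 lie in the quadrants of opposite sign, from MCOLN1 at upper left to WIPI1 at lower right.

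Tested as a difference between the lines, the change in the deleted line minus the change in the parental line, 23 of 35 members were called for day 3 (39.5% of all genes), 10 of them higher (18.6%) and 13 lower (20.9%). For day 6 there were 6 (12.6%), 2 higher (5.49%) and 4 lower (7.14%), and for day 9 there were 26 (51.7%), 13 higher (24.4%) and 13 lower (27.3%). The 5 that held at day 6 when any 1 library was left out were TFE3, LAMP1, NPC2, HEXA and GABARAPL2. For day 9 LAMP1 differed by 0.95 ± 0.08 (adjusted p = 3.7e-08) and for day 6 by 0.33 ± 0.08 (adjusted p = 0.015).

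With doxycycline present in both lines, 13 of 35 members differed between the deleted and the parental line, or 37.1% beside 19.3% of all genes (median -0.11, beside 0.01). Of these 2 were higher (9.32% of all genes) and 11 lower (9.97%), and 7, all lower, held when any 1 library was left out: LAMP1 (-0.35 ± 0.06, adjusted p = 0.0004), MCOLN1 (-0.52 ± 0.12, adjusted p = 0.0052), CTSA (-0.34 ± 0.06, adjusted p = 0.001), CTSD (-0.29 ± 0.07, adjusted p = 0.0042), NEU1 (-0.56 ± 0.10, adjusted p = 0.00084), ATP6V0D1 (-0.42 ± 0.09, adjusted p = 0.0018) and ATP6V1B2 (-0.33 ± 0.07, adjusted p = 0.0017). Of these 7, 6 are genes whose promoter stretch with an E-box is printed above. Both doxycycline groups compared here are also the baselines of the day and parental comparisons. The same genes being called there is therefore not independent of this result.

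Set out by promoter, the 7 E-box members split 6 to 1 in several comparisons, some of which share libraries. Over all genes 22.6% were called higher and 23.8% lower at day 9, 14% and 14% at day 6, and 21% and 18.4% in parental cells. Other tested genes with an E-box in a window were not examined, so whether the split goes with the motif was not tested. At day 9 LAMP1, MCOLN1, CTSA, CTSD, NEU1 and ATP6V0D1 rose and GAA fell, with a median over the 7 of 0.46. The 19 members with a window and no E-box had 7 higher, 6 lower and 6 not called at day 9, with a median of 0.03. At day 6 the 7 had 1 higher (GAA), 4 lower (MCOLN1, CTSA, CTSD and ATP6V0D1) and a median of -0.30, and the 19 had 5 higher, 6 lower and a median of 0.01. In parental cells without doxycycline 6 fell and GAA rose (median -0.45), and the 19 had 6 higher, 2 lower and a median of 0.08. Of the calls of the 7, those that held when any 1 library was left out were 6 higher and 0 lower at day 9, 1 higher and 2 lower at day 6, and 1 higher and 4 lower in parental cells. Among the 19, GLA, ATP6AP1, BECN1 and ATG16L1 (higher) and NPC2, WIPI1, GABARAPL1 and OPTN (lower) held at day 9. ULK1, WIPI1 and GABARAPL1 (higher) and BECN1, CTSL, GLA and GABARAPL2 (lower) held at day 6. In parental cells the 6 higher calls of the 19 held, and the lower calls of TFE3 and TFEB did not. Parental CTSA fell by 0.19 (SE 0.06, adjusted p = 0.024), which went uncalled without no-doxycycline replicate 1 (-0.15) or doxycycline replicate 1 (-0.19) or 3 (-0.15), under library size alone (-0.14) and with the span trend removed (-0.14); the values for GAA, NEU1, MCOLN1 and ATP6V0D1 are given above. GAA is 1 of the 2 members with the full 10-letter form; the other, MCOLN1, moved the opposite way. The groups were formed from the sequences and are given as a description.

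Beyond the 35, 171 other genes in 7 lists were read, of which 162 were tested: mTORC1, folliculin and Rag control of TFEB; other hydrolases; other lysosomal membrane proteins; other proton pump subunits; other autophagosome genes; cargo receptors and mitophagy; and fusion of autophagosomes with lysosomes. Together 32 were called at day 3 (16 higher, 16 lower), 62 at day 6 (21 higher, 41 lower) and 104 at day 9 (65 higher, 39 lower), or 19.8%, 38.3% and 64.2%, each above the share of all genes. The lists too were chosen with earlier results of these data known, so a higher share is no test. Medians over the 162 lay between -0.03 and 0.04. Shares called in single lists ran from 6.25% to 33.3% at day 3, beside 13.4% of all genes. They ran from 31.2% to 53.6% at day 6 (28.1% of all genes) and from 56.2% to 75% at day 9 (46.4%). The pump and fusion lists, both at 31.2% at day 6, lay near the share of all genes. Over all genes 14% were called higher and 14% lower at day 6, and 22.6% higher and 23.8% lower at day 9. The genes named next were chosen by size within each list, and their calls held when any 1 library was left out, VAMP8 excepted.

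The other 16 proton pump subunits tested went from 1 higher and 4 lower at day 6 to 8 higher and 1 lower at day 9. Day 9 minus day 6 gave 12 higher and 3 lower (93.8%, beside 58.8% of all genes) and a median of 0.33. At day 9 ATP6V0C rose by 0.60 ± 0.19 (adjusted p = 0.014) and ATP6V0B by 0.56 ± 0.08 (adjusted p = 1.9e-05); both form the rotating ring in the membrane, and ATP6V0C has pseudogenes in the tables that its reads could be split with. ATP6V1B1, the B subunit known from kidney and inner ear, fell by 1.82 (SE 0.19, adjusted p = 4.2e-07) to 1.09 ± 0.269 CPM (SD, n = 3), where ATP6V1B2, its widely expressed counterpart, rose. Of 28 other membrane proteins 6 rose and 9 fell at day 6 and 15 rose and 4 fell at day 9. CD68, a glycoprotein related to the LAMPs, rose by 0.98 ± 0.23 (adjusted p = 0.0014) and TPCN2, a cation channel, by 0.70 ± 0.11 (adjusted p = 3.7e-05), and LMBRD1, which takes part in cobalamin export, fell by 0.70 (SE 0.10, adjusted p = 1.6e-05).

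Of 39 other hydrolase genes tested, 5 rose and 10 fell at day 6 and 14 rose and 8 fell at day 9. At day 9 the hyaluronidase HYAL2 rose by 0.87 ± 0.09 (adjusted p = 5.5e-07), the acid phosphatase ACP2 by 0.85 ± 0.12 (adjusted p = 8.7e-06), and SIAE, a sialic acid esterase, fell by 0.94 (SE 0.07, adjusted p = 6.5e-09). Among 22 tested genes of the mTORC1 branch 2 rose and 6 fell at day 6 and 9 rose and 6 fell at day 9. LAMTOR1 and LAMTOR2, of the scaffold that holds the Rag GTPases on the lysosome, each fell by 0.52 at day 6 (SE 0.07 and 0.08, adjusted p = 2.6e-05 and 0.00011). FNIP1, which encodes a partner of folliculin, rose by 0.50 ± 0.12 there (adjusted p = 0.0051). FLCN, the folliculin gene needed for mTORC1 to restrain TFEB, rose by 0.94 ± 0.10 at day 9 (adjusted p = 5.5e-07), and TSC2, an mTORC1 inhibitor, by 0.73 ± 0.08 (adjusted p = 1.3e-06). On the other side, PPP3CA, a catalytic subunit of the phosphatase calcineurin that acts on TFEB, fell by 0.75 at day 9 (SE 0.08, adjusted p = 4.1e-07), and FNIP1 fell by 0.56 (SE 0.12, adjusted p = 0.001); with the span trend removed both were at -0.32 and still called.

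Of 15 cargo receptor and mitophagy genes 0 rose and 5 fell at day 3 (33.3% called, beside 13.4% of all genes). At day 6, 2 rose and 3 fell (33.3%, near the 28.1% of all genes). At day 9, 3 rose and 7 fell (66.7%, beside 46.4%). SQSTM1, the receptor p62, was at 111, 99.2 and 105 CPM with doxycycline and 188, 188 and 193 at day 9, and rose by 0.85 ± 0.06 there (adjusted p = 9.5e-09). BNIP3L, a mitophagy receptor in the outer mitochondrial membrane, fell by 0.65 at day 3 (SE 0.11, adjusted p = 0.001) and by 0.91 at day 9 (SE 0.11, adjusted p = 1.8e-06).

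The 26 other autophagosome genes tested were divided, with 9 higher and 8 lower at day 9. ATG2A, a lipid transfer protein, rose by 0.65 ± 0.09 (adjusted p = 1.7e-05), and RB1CC1, a scaffold of the ULK1 complex, fell by 0.56 (SE 0.08, adjusted p = 7.8e-06). ATG101, another part of that complex, rose by 0.54 ± 0.10 (adjusted p = 0.00015). Of 16 fusion genes none rose and 5 fell at day 6, and 7 rose and 5 fell at day 9, where VPS18 and VPS33A of the HOPS tethering complex rose by 0.90 ± 0.12 (adjusted p = 4.1e-06) and 0.47 ± 0.07 (adjusted p = 1.5e-05). Among those that fell, EPG5, a tethering factor, changed by -0.66 ± 0.09 (adjusted p = 6e-06; -0.39 with the span trend removed). VAMP8, a SNARE of autophagosome fusion, was at 0.35 to 0.616 CPM with doxycycline and 0.177 to 0.356 at day 9 and fell by 0.98 (SE 0.37, adjusted p = 0.038). VAMP8 went uncalled without doxycycline replicate 1 (-0.78) or 2 (-0.97), without day 9 replicate 1 (-0.80) or 2 (-0.88), with no low-count filter (-0.97) and with only the libraries of the comparison (-0.98).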

How the data were processed

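RNA was sequenced as 151-bp read pairs, per the labels' protocols. The authors deposited whole-number gene counts; tools in the submitters' processing notes are HISAT2, Subread featureCounts, SAMtools, cutadapt 2.3 and DESeq2, on GRCh38. Column names carry HISAT2_RF. No source used here states the other versions, the annotation release or whether the counting used strand. Lines of 16 genes were broken in 1 of the tables and were rejoined, and 6 libraries present in 2 tables were identical.

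Counts were fitted with edgeR 4.0.16 (R 4.3.3): filterByExpr by group (minimum count 10), TMM, 1 mean per group over all 18 libraries, a quasi-likelihood test and Benjamini-Hochberg adjustment over 21615 genes. CPM use TMM-scaled library sizes. Calls need an adjusted p under 0.05. The fit was also run on simulated counts with known changes. There far fewer genes changed than in these data, and in 1 group only, so that run is no check on the calls given here.

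Alternatives were DESeq2 1.42.0, library size alone, no filter, a replicate block, a gene-span trend (loess) removed, the libraries of the comparison alone, a fold minimum and 1 library left out. Gene span is the annotated distance from first to last base. Values per library are given for the transcription factors and for members called with a log2 change of at least 0.5 at any day, and 2 genes per direction, list and day could be named from the other lists. LAMP1, GAA, BECN1 and SQSTM1 were given per library after their values were seen. Some genes of the other lists are not reported here. Members and lists were chosen with earlier results of these data known.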

Additional observations from a re-analysis of the deposited data

Results flagged for a closer look

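For the 12 members whose values in every library are chosen by rule (the transcription factors and those with the larger day changes), 20 of the differences between the change of the deleted line and that of the parental line passed edgeR's test of the difference itself, with adjusted p under 0.05 over all genes. Over all genes 39.5%, 12.6% and 51.7% passed it for days 3, 6 and 9. The day changes that chose most of the 12 are part of these differences, so the count is no separate support. The differences for the days also share the deleted line's doxycycline group and both parental groups. At day 3 these log2 differences were 1.25 for MCOLN1, 0.88 for ATP6V0D1, 0.56 for NEU1, 0.31 for TFE3, -0.36 for UVRAG, -0.89 for NPC2, -0.91 for OPTN, -1.33 for GABARAPL1 and -2.19 for WIPI1. At day 6 they were 0.46 for TFE3 and -0.74 for NPC2. At day 9 they were 1.49 for MCOLN1, 1.28 for ATP6V0D1, 1.08 for NEU1, 0.46 for TFE3, -0.78 for UVRAG, -1.11 for OPTN, -1.17 for NPC2, -1.65 for GABARAPL1 and -2.14 for WIPI1. The TFE3 call at day 3 was lost without the parental no-doxycycline replicate 1 (0.27), the parental doxycycline replicate 2 (0.30), the deleted-line doxycycline replicate 2 (0.30) or 3 (0.27), or day 3 replicate 3 (0.29), and under library size alone (0.27). With the trend over gene span removed the UVRAG values were -0.17 at day 3 and -0.21 at day 9, and neither was called.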

How the results depend on the processing

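Fitting only the libraries of a comparison called 16 members instead of 8 at day 3 and 22 instead of 13 between the lines (6446 instead of 2889 and 7295 instead of 4171 of all genes), and DESeq2 called 10 instead of 6 in the day 6 difference between lines (3647 instead of 2729 of all genes). A log2 change of at least 0.5 as well left 3, 2 and 8 members at days 3, 6 and 9. Without 1 library the counts ran from 3 to 9 at day 3, 11 to 15 at day 6, 20 to 23 at day 9, 22 to 25 for day 9 minus day 6, 16 to 19 in parental cells, 8 to 11 between the lines, and 19 to 24, 5 to 10 and 25 to 27 for the differences between lines at days 3, 6 and 9. Over all genes, leaving out 1 library moved the count by over 1.5 times at day 3 (1136, 1408, 1334 and 1107 without doxycycline replicate 1 or 2 or day 3 replicate 2 or 3) at day 6 (3934 without doxycycline replicate 3), between the lines (2683 without parental doxycycline replicate 3, 2621 and 2610 without deleted-line doxycycline replicates 1 and 2) and for the day 6 difference between lines (1746 and 1660 without parental doxycycline replicates 2 and 3, 1728 without deleted-line doxycycline replicate 2, 1693 without day 6 replicate 3). Removing the trend over gene span turned day 9 minus day 6 from -0.33 to 0.19 for MITF and from -0.18 to 0.14 for ATP6V1H. Spearman's correlation of span with log2 change over all genes was 0.18 at day 6 and -0.14 at day 9, and over the 35 members 0.33 and -0.36; genes are not replicates.

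Replicate numbers did not pair the libraries: of 45 same-number pairs 0 correlated over 0.1 (-0.0775 to 0.0697) and 3 libraries correlated best with their own number. With the replicate block 9, 16, 24, 26, 21 and 12 members were called at days 3, 6 and 9, for day 9 minus day 6, in parental cells and between the lines, and 22, 7 and 26 for the differences between lines. Of the genes given with a fold change, VAMP8 had the lowest level (0.177 to 0.356 CPM at day 9).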
